A study of Mus musculus with 28 samples.

Results

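Receptors for glutamate and for GABA are assembled from subunits that are encoded by separate genes, and these genes were followed in the ageing subventricular zone of the mouse. The genes were taken by name from the table of single cells, as those whose symbol starts with Gria, Grin, Grik, Grid, Grm, Gabr or Gabbr, without Grina and without pseudogenes. This gave 48 of the 37974 genes listed, of which 47 encode receptor subunits and 1 encodes a scaffold protein and no subunit. The glutamate receptor subunits numbered 26, with 4 of the AMPA type, 5 of the kainate type, 7 of the NMDA type, 2 of the delta type and 8 metabotropic receptors. The GABA receptor subunits numbered 21, with 19 of the GABA-A type and 2 of the GABA-B type. By the same identifier 43 of the 47 subunits were listed among the 36358 genes of the tissue table, and the other 4, Gria4, Grik1, Grin2d and Gabrr3, were not analysed in tissue.

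All samples came from C57BL/6 mice, and no treatment or transgene is named for any of them. The tissue was the wall of the lateral ventricle next to the striatum, which holds the ependymal zone (EZ) and the subependymal or subventricular zone (SEZ/SVZ), from mice of 3 weeks (n = 3) and 18 months (n = 3). The 22 single cells were freed from the same region with papain, sorted by size and complexity, picked by hand and amplified with Smart-seq2. They were selected by PCR for several progenitor markers, of which the study names Prom1, Gfap, Dlx2 and Dcx. They comprise Prom1+ cells of 1 month (n = 3) and 24 months (n = 3), Gfap+ cells of 1 month (n = 2) and 24 months (n = 5), and Dlx2+/Dcx+ cells of 1 month (n = 5) and 24 months (n = 4). Values are FPKM, fragments counted per length of transcript and scaled to the mapped fragments of each library, so that levels of different genes can be set side by side. The FPKM of all genes summed to 297529 to 318909 per tissue sample. Per cell they summed to 912735 to 1050969 in Prom1+, 1013522 to 1801303 in Gfap+ and 868792 to 1200827 in Dlx2+/Dcx+ cells. A limit of 1 FPKM is therefore not the same share of the total in tissue, in cells and in each subpopulation. No animal is named for any sample. The p-values in tissue therefore measure the spread between these samples, which may be technical, and each subpopulation at each age counts as 1 sample, so that cells were described without a test. The study named the subpopulations from the transcriptomes of these same cells, and differences between them are a description.

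Ionotropic glutamate receptors (AMPA, kainate and NMDA types) are cation channels of several subunits that excite the cell, whereas the metabotropic receptors act through G proteins. GABA-A receptors are chloride channels, usually built with alpha, beta and gamma or delta subunits, and the GABA-B receptor is a G protein-coupled pair of Gabbr1 and Gabbr2. In the subventricular zone, GABA released by neuroblasts is known to act on neighbouring progenitors, and migrating neuroblasts are known to carry both GABA and glutamate receptors.

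Markers were read in the libraries before the receptors. Prom1 was between 1.49 and 56.6 FPKM in the Prom1+ cells, Dcx between 15.8 and 267 FPKM in the Dlx2+/Dcx+ cells and Gfap between 48.7 and 194.5 FPKM in the Gfap+ cells. The cells were selected and named by these genes, so that these ranges describe the labels and are no independent check. The Gfap+ cells also held the oligodendrocyte markers, 10 of 10 above 1 FPKM in at least 4 of their 7 cells, with a summed level from 39742 to 89625 FPKM against 21.1 to 278.9 in Prom1+ cells and 22.9 to 353 in Dlx2+/Dcx+ cells. Of the 8 astrocyte markers, which summed to 187 to 2716 FPKM in Gfap+ cells, Gfap was above 1 FPKM in 7 of the 7 cells, S100b in 6, Aldoc in 5, Slc1a2 in 3 and Gja1 in 2, while Aldh1l1 and Gjb6 were listed at 0 in every one and Aqp4 reached at most 0.0934 FPKM. All 10 neural stem or progenitor markers were above 1 FPKM in at least 3 of 6 Prom1+ cells, and 9 of 10 neuroblast markers in at least 5 of 9 Dlx2+/Dcx+ cells. The name Gfap+ is used below as the label of these cells, not as a cell type. In tissue the oligodendrocyte markers summed to 3787 to 4492 FPKM at 18 months and 19957 to 22165 at 3 weeks, with 5 of the 8 markers tested called lower. One of these was Olig2, listed at 0 in every sample of 18 months and at 10.3, 10.7 and 59.6 FPKM at 3 weeks. Olig1 was listed at 0 in all 6 samples, and such zeros are not read as absence. Markers of striatal projection neurons summed to 2286 to 2491 FPKM at 18 months and 1140 to 1764 at 3 weeks, with 1 of the 7 tested called higher, while general neuron markers summed to 1461 to 2089 and 1388 to 1584 FPKM. Neuroblast markers summed to 239 to 367 FPKM at 18 months and 392 to 509 at 3 weeks, with 2 of 8 called lower. Neural stem or progenitor markers summed to 214 to 387 FPKM and 392 to 465 FPKM in the same order, with 2 of 10 called lower, and oligodendrocyte precursor markers to 38.9 to 48.5 and 90.6 to 107 FPKM, with 1 of 5 called lower. The progenitor marker Sox2, not called, was listed at 0, 0 and 40.8 FPKM at 18 months and at 0, 54.0 and 44.3 FPKM at 3 weeks. Astrocyte markers (682 to 951 and 626 to 1003 FPKM), ependymal markers (107.9 to 119 and 78.5 to 103.5 FPKM), microglia markers (105.5 to 241 and 94.2 to 194 FPKM) and endothelial markers (31.2 to 35.9 and 44.1 to 58.7 FPKM) had 0 genes called. The sums of general neuron, astrocyte and microglia markers overlapped between the ages, and those of the other lists did not. The part of these marker levels in the receptor values below was not tested. In tissue, fewer cells of a type and less RNA per cell cannot be told apart.

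Promoter sequences of 3 genes are shown because the results turn on these genes. Grm3 was the leading subunit of the Gfap+ cells, Gria2 the one above 1 FPKM in most Prom1+ and most Dlx2+/Dcx+ cells, and Gabrg1 the only subunit called in tissue. Each is the stretch of 250 bases before the RefSeq start of the gene on build GRCm38.p6, read 5′ to 3′ on the gene's own strand, and none of its bases lies in an exon of the GENCODE annotation. Capitals mark matches on either strand to a SOX core (ACAANG), an E-box (CANNTG) or a homeobox site (TAATTA).
Grm3: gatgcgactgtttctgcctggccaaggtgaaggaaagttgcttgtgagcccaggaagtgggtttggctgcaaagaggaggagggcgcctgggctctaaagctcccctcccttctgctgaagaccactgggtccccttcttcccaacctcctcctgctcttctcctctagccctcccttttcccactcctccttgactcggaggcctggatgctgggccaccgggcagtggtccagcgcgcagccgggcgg
Gria2: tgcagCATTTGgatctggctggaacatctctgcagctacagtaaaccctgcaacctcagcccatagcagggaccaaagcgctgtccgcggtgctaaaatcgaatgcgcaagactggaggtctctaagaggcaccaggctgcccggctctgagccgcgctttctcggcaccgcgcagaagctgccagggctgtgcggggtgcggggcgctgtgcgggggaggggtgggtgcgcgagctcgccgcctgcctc
Gabrg1: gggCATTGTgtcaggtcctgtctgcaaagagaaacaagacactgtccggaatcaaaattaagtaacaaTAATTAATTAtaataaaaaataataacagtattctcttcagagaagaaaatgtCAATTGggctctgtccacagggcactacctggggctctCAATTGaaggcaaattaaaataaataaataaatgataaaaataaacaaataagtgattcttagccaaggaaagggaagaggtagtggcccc
The Grm3 stretch lies at chr5:9725353-9725602 on the minus strand, has 62.4% G and C and holds none of the 3 motifs. The Gria2 stretch lies at chr3:80802836-80803085 on the minus strand, has 64.8% G and C with 19 CpG dinucleotides, and holds 1 E-box. The Gabrg1 stretch lies at chr5:70842618-70842867 on the minus strand and has only 35.6% G and C with 1 CpG, against medians of 52.4% and 6 CpG over 32526 upstream windows of the same table. It holds 1 SOX core, 2 E-boxes and 2 homeobox sites that overlap each other, while 36.2%, 66.2% and 4.84% of those windows hold at least 1 SOX core, E-box and homeobox site. Such matches describe the letters of the window only. Of the 47 subunits, 32 had a window in that table.

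In tissue every family had subunits above the limit for testing. A level of 1 FPKM or more in 3 or more samples of the 6 was reached by 35 of the 43 subunits (81.4%), against 59.1% of protein-coding genes and 33.8% of all genes listed. The 8 below this limit were Gabra6 and Gabrp, which were listed at 0 in every sample, and Gabre, Gabrq, Gabrr1, Grin3b, Grm2 and Grm6, whose means by age lay between 0.00358 and 0.899 FPKM. The scaffold gene also stayed below it. The 35 subunits spanned a mean over the 6 samples from 1.21 FPKM for Gabrr2, a rho subunit of GABA-A receptors, to 140.3 FPKM for Gabbr1. Gabrr2 reached 1 FPKM in 4 samples only.

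The summed level of the receptor subunits was higher at 18 months than at 3 weeks, most single subunits differed by a log2 fold change under 1, and Gabrg1 alone passed the limits for a call. The 43 subunits together summed to 865, 816 and 838 FPKM in the 3 samples of 18 months and to 689.8, 640.2 and 661 FPKM in those of 3 weeks, so that the ages did not overlap. By family, the sums of AMPA, GABA-A and metabotropic subunits were higher without overlap, that of kainate subunits was lower without overlap (87.2 to 97.0 FPKM at 18 months and 100.1 to 114.4 FPKM at 3 weeks), and those of NMDA, delta and GABA-B subunits overlapped. Grik5 alone made up most of the kainate sum, at 61.2 to 76.9 FPKM at 18 months and 83.9 to 93.3 FPKM at 3 weeks. The kainate subunits Grik3 and Grik4 were higher at 18 months without overlap. The median log2 fold change of the 35 subunits, given as 18 months minus 3 weeks, was 0.40, against 0.09 over all 12287 genes tested, and without the first sample of 18 months these were 0.23 and 0.11. It was taken on log2(FPKM + 1), where the added 1 makes changes of weakly expressed genes look smaller than they are. The fold change was above 0 in 27 of the 35 subunits (77.1%), against 58.8% of all genes. By limma, 13 subunits were higher with an unadjusted p under 0.05, where 15.4% of all genes were, and 1 was lower, where 8.93% of all genes were. After Benjamini-Hochberg adjustment over all genes tested, 0 of the 35 had p under 0.05 by limma in either direction, against 2.51% of all genes higher and 2.42% lower (1.04% and 1.23% with a log2 fold change beyond 1 as well). Gabrr1, which stayed below the limit of 1 FPKM, was lower with an adjusted p of 0.0353 from limma when no limit was set and of 0.0488 when values were scaled to TPM. At the limits of the study's methods, a log2 fold change beyond 1 in either direction and p under 0.05 before adjustment, limma called 1 subunit higher, Gabrg1, and 0 lower, where 1.83% and 2.07% of all genes were called (225 and 254). Scaled to TPM, more genes passed the limit for testing, 14791 with 39 subunits among them, of which 521 and 370 were called higher and lower, and 2 subunits, Gabrg1 and Gabrr2, were called higher. Every sample of 18 months was above every sample of 3 weeks in 12 subunits, where 20.9% of all genes behaved so, and below in 3 (Grik5, Grin2c and Grin3a), where 12.2% did.

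**Figure D1:**
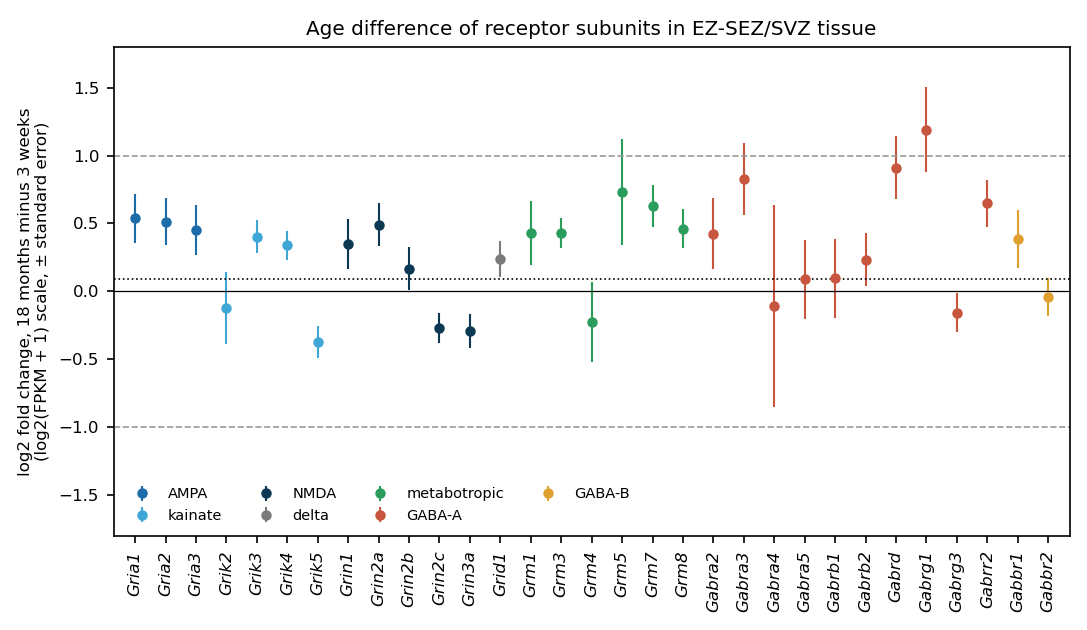
Age difference of 31 of the 35 tested subunits in tissue, with 1 point per subunit and its standard error from limma, coloured by receptor family, on the log2(FPKM + 1) scale as 18 months minus 3 weeks. Most points lie between 0 and 1, the dotted line is the median of all genes (0.09), the dashed lines are the limit of 1 in either direction, and Gabrg1 at 1.19 is the only point beyond it.

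The AMPA receptor subunits, which carry fast excitatory currents, were above 0 in all 3 tested. Gria2, the subunit that makes the channel impermeable to calcium, was at 57.2, 58.2 and 49.4 FPKM at 18 months and 45.1, 40.3 and 30.3 FPKM at 3 weeks. The ages did not overlap, although the lowest sample of 18 months stood only a little above the highest of 3 weeks (log2 fold change 0.51, standard error 0.17, adjusted p = 0.150 from limma). Gria1, its usual partner in the forebrain, was at 64.1, 84.7 and 91.3 FPKM at 18 months and 64.2, 49.4 and 50.2 FPKM at 3 weeks. Its ages overlapped through 1 sample of 18 months that lay level with the highest sample of 3 weeks (log2 fold change 0.54, standard error 0.18, adjusted p = 0.150 from limma).

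The kainate receptor subunits had log2 fold changes in both directions. Grik5, a kainate subunit that forms channels only together with others, was at 76.9, 67.6 and 61.2 FPKM at 18 months and 93.3, 83.9 and 89.4 FPKM at 3 weeks. Each sample of 18 months was below each of 3 weeks, and Grik5 was the only subunit lower with an unadjusted p under 0.05 (log2 fold change −0.37, standard error 0.12, adjusted p = 0.135 from limma). It took 8.16% of the summed subunit FPKM at 18 months and 13.4% at 3 weeks. Grik2, a subunit that forms channels by itself, overlapped between the ages, with means of 9.87 ± 2.96 FPKM at 18 months and 10.8 ± 2.63 FPKM at 3 weeks (SD, n = 3 each). Grik3 and Grik4 were among the 13 subunits higher with an unadjusted p under 0.05.

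Among the NMDA receptor subunits, Grin1, the subunit that every NMDA receptor needs, was the most abundant at 94.7, 73.7 and 74.1 FPKM at 18 months and 58.9, 53.5 and 78.3 FPKM at 3 weeks, with overlapping ages. Its exons share 1307 bases with Grin1os on the opposite strand, and without strand in the counting the reads of the pair cannot be told apart. Grin2b, the glutamate-binding subunit that predominates early in development, was at 15.9, 19.8 and 15.2 FPKM at 18 months and 16.5, 15.8 and 12.7 FPKM at 3 weeks, again with overlap. Grin2a, which joins receptors of the maturing forebrain, was lower than Grin2b in every sample, at 4.42, 3.93 and 5.25 FPKM at 18 months and 3.51, 2.79 and 2.51 FPKM at 3 weeks. For Grin2a the ages did not overlap (log2 fold change 0.49, standard error 0.16, adjusted p = 0.142 from limma).

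The delta receptor subunit Grid1 was at 14.8 ± 0.779 FPKM at 18 months and at 12.5 ± 1.72 FPKM at 3 weeks (SD, n = 3 each), with overlapping ages. Among the metabotropic receptors, Grm3, a receptor coupled to inhibition of adenylyl cyclase that is known in glia as well as neurons, was the most abundant. It was at 30.6, 33.7 and 33.1 FPKM at 18 months and 24.6, 25.5 and 21.6 FPKM at 3 weeks. The ages did not overlap and the samples within each age lay close together (log2 fold change 0.43, standard error 0.11, adjusted p = 0.0884 from limma). Grm5, which couples to phospholipase C and is abundant in striatal neurons, was at 14.4, 29.2 and 30.9 FPKM at 18 months and 20.5, 13.7 and 9.27 FPKM at 3 weeks. Its first sample of 18 months fell within the range of 3 weeks, so that the ages overlapped (log2 fold change 0.73, standard error 0.39, adjusted p = 0.315 from limma), and the log2 fold change ran from 0.47 without the third sample of 3 weeks to 1.07 without that first sample. Grm7 and Grm8, receptors of the third metabotropic group, were among the 13 subunits with an unadjusted p under 0.05.

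GABA-A receptor subunits were above 0 in 11 of 13 tested, with a median log2 fold change of 0.47. Gabrg1, a gamma subunit that is rare in most of the adult forebrain, was at 3.48, 7.42 and 8.37 FPKM at 18 months and 2.67, 1.69 and 2.02 FPKM at 3 weeks. The ages did not overlap, and 2 of the 3 samples of 18 months stood far above the third (log2 fold change 1.19, standard error 0.31, unadjusted p = 0.00973 and adjusted p = 0.0944 from limma). Without the third sample of 18 months its log2 fold change was 0.99 and it was no longer called, while Gabrd then was, at 1.02, and without the first sample of 18 months 4 subunits were called higher (Gabra3, Gabrd, Gabrg1 and Grm5) and 2 subunits had an adjusted p under 0.05 from limma, where of all 11932 genes then tested 252 were called higher and 309 higher and 304 lower had an adjusted p under 0.05.

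Gabrd, the delta subunit of receptors that lie outside synapses and respond to ambient GABA, was at 42.0, 74.1 and 44.4 FPKM at 18 months and 28.8, 26.6 and 26.0 FPKM at 3 weeks. It was the most abundant GABA-A subunit, and its ages did not overlap, with 1 sample of 18 months well above the other 2 (log2 fold change 0.91, standard error 0.23, adjusted p = 0.0880 from limma). Gabra2, an alpha subunit prominent in immature neurons and in the striatum, was at 12.3, 15.4 and 17.8 FPKM at 18 months and 7.53, 14.3 and 11.98 FPKM at 3 weeks, with overlap.

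Gabra4, picked out after its values were seen, varied more within an age than between ages. This alpha subunit of extrasynaptic striatal receptors was at 14.1, 6.29 and 38.8 FPKM at 18 months and 7.40, 26.2 and 23.0 FPKM at 3 weeks. The standard error of its log2 fold change (0.75) was larger than the fold change itself (−0.11), and its direction was not distinguishable from the spread between samples.

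Many GABA-A genes lie next to each other in the genome, and their age differences are set side by side here. On chromosome 5, within 1398 kb of GRCm38, lie Gabrg1 (70751047 to 70842617), Gabra2 (70957597 to 71095849), Gabra4 (71569749 to 71658308) and Gabrb1 (71658113 to 72149037). Their log2 fold changes were 1.19, 0.43, −0.11 and 0.10 in that order, of which only that of Gabrg1 passed the limits for a call, and that of Gabra2 was 0.19 without the first sample of 3 weeks. Gabra4 and Gabrb1 share 46 exon bases on opposite strands, so that a few reads could have been counted for either. On chromosome X, Gabra3 (log2 fold change 0.83) had ages that did not overlap, while its neighbours Gabre and Gabrq were below the limit of 1 FPKM.

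Of the GABA-B receptor pair, Gabbr1, which binds GABA, was at 215, 137 and 129.8 FPKM at 18 months and 132, 113 and 114 FPKM at 3 weeks. The first sample of 18 months stood far above the rest and the third lay within the range of 3 weeks, so that the ages overlapped (log2 fold change 0.39, standard error 0.21, adjusted p = 0.332 from limma), and without that first sample the log2 fold change was 0.16. Gabbr2, which couples the receptor to its G protein, was at 22.1, 16.2 and 19.6 FPKM at 18 months and 20.2, 19.96 and 19.1 FPKM at 3 weeks, several-fold below Gabbr1 in every sample and with overlapping ages.

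**Figure D2:**
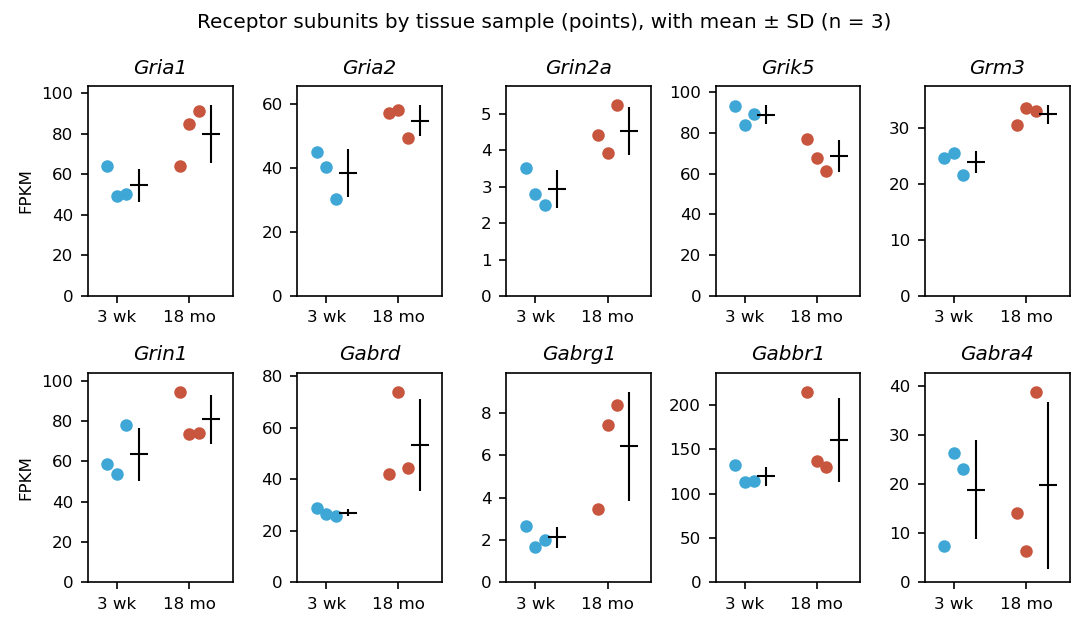
FPKM of 10 subunits in each tissue sample (blue, 3 weeks; red, 18 months), with the mean and SD of the 3 samples of an age in black, on linear axes that start at 0. Gria2, Grin2a, Grm3, Gabrd and Gabrg1 are higher in every sample of 18 months, Grik5 is lower in every one, and Gria1, Grin1, Gabbr1 and Gabra4 overlap.

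Some subunits are known to replace each other as neurons mature, and others set calcium entry together. Ratios of such subunits were compared for 3 pairs, of which 2 are given here. The log2 ratio of Grin2a to Grin2b was −1.70 ± 0.35 at 18 months and −2.02 ± 0.11 at 3 weeks (SD, n = 3 each), a difference of 0.32 (exact two-sided permutation test, p = 0.3). The log2 ratio of Gria1 to Gria2 differed by 0.02 (exact permutation test, p = 0.9). The ages overlapped for both ratios, the values adjusted over the 3 tests were 0.75 and 0.9 (exact permutation), and 3 samples against 3 cannot give a p below 0.1. Without 1 of the samples in turn, the difference ranged from 0.16 to 0.51 for Grin2a to Grin2b and from −0.15 to 0.20 for Gria1 to Gria2, where it turned without the third sample of 18 months (−0.15) or the second of 3 weeks (−0.08).

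Genes that make, move or anchor the transmitters and receptors had a median close to that of all genes. Of the 61 genes of this list 51 were tested in tissue, with a median log2 fold change of 0.04 and 27 above 0, where 58.8% of all genes were. limma called 1 of the 51 higher and 0 lower, where 1.83% and 2.07% of all genes were called, and 0 had an adjusted p under 0.05, where 2.51% and 2.42% of all genes did. The called gene was Abat, the enzyme that breaks down GABA, at 20.7, 116.1 and 118.9 FPKM at 18 months and 17.3, 21.9 and 11.98 FPKM at 3 weeks. Its first sample of 18 months lay within the range of 3 weeks, so that the ages overlapped (log2 fold change 1.94, standard error 0.71, adjusted p = 0.175 from limma). By part, the median was 0.74 for the 7 genes of synthesis and breakdown, of which glutamine synthetase (Glul) was the most abundant, and 0.55 for the 5 tested auxiliary subunits of GABA receptors. It was −0.29 for the 9 tested auxiliary subunits of glutamate receptors, −0.14 for 20 postsynaptic scaffolds, led by Dlg4 (PSD-95), and 0.004 for 7 plasma membrane transporters. Of the 2 tested vesicular transporters, Slc17a8 was at 0.15 (standard error 0.11) and Slc32a1 varied too widely to compare, at 0, 107.7 and 90.8 FPKM at 18 months and 3.81, 0.267 and 81.6 FPKM at 3 weeks. Slc12a5, which expels chloride from mature neurons, was at 0.54 (standard error 0.12, adjusted p = 0.0661 from limma).

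In single cells few subunits were detected. Only 9 of the 47 subunits (19.1%) were above 1 FPKM in at least 3 of the 22 cells, where 29.8% of all genes listed and 48.4% of protein-coding genes were. Among them were Gria2, Gria4, Grik2, Grin2b, Grm3, Gabra3, Gabrb2 and Gabbr1. A further 7 subunits were above 1 FPKM in 2 cells and 6 in a single cell, 25 never rose above 1 FPKM, and 15 of those were listed at 0 in every cell. Of the 19 GABA-A subunits 7 were listed at 0 throughout, and of the 8 metabotropic receptors 5. The depth of the cells could not be recovered from the values, and values below 1 FPKM, or listed at 0, are not read as absence. Each cell had between 4398 and 6626 genes above 1 FPKM.

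The number of subunits above 1 FPKM per cell was 2 to 5 in Prom1+ cells (median 3.5), 1 to 4 in Gfap+ cells (median 3) and 4 to 7 in Dlx2+/Dcx+ cells (median 5), although Prom1+ cells had the most genes above 1 FPKM (median 6315 against 5415 and 5304). The highest subunit of a cell took a median share of its summed subunit FPKM of 92.2% in Gfap+ cells, 55.6% in Prom1+ cells and 48.4% in Dlx2+/Dcx+ cells. At least 3 of 6 Prom1+ cells had Gria2, Grin2b and Grm3 above 1 FPKM, at least 4 of 7 Gfap+ cells had Grm3 and Gabbr1, and at least 5 of 9 Dlx2+/Dcx+ cells had 4 subunits, among them Gria2, Gabrb2 and Gabbr1. These 3, 2 and 4 of 47 subunits compare with 17.5%, 12.3% and 12.6% of all genes listed, and as shares of the 9 detected subunits with 58.5%, 41.3% and 42.1% of the genes above 1 FPKM in at least 3 cells.

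**Figure D3:**
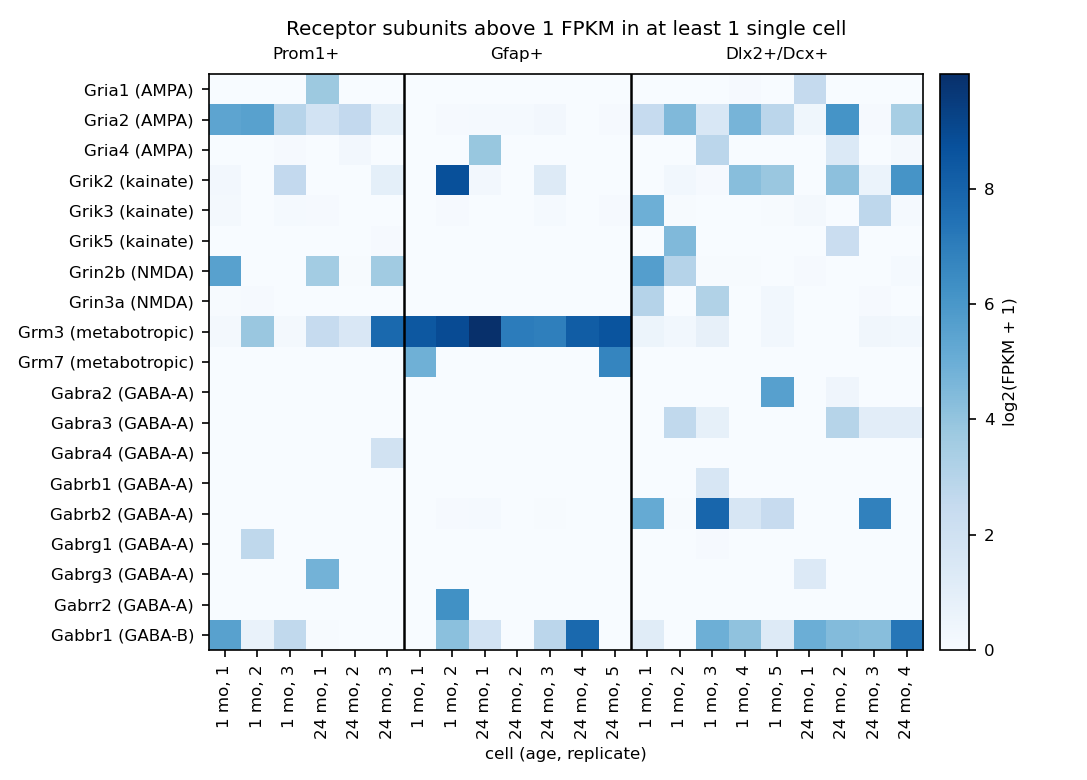
Level of 19 of the 22 subunits above 1 FPKM in at least 1 cell, as log2(FPKM + 1), with 1 column per cell ordered by subpopulation and age (mo, months) and 1 row per subunit with its family in brackets. Grm3 is filled across the 7 Gfap+ cells and Gria2 in most Prom1+ and Dlx2+/Dcx+ cells, while most other rows are filled in scattered cells.

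Grm3 was the subunit of the Gfap+ cells. It was at 347 and 476 FPKM in those of 1 month and at 1011, 131.6, 120.9, 304 and 388 FPKM in those of 24 months, so that all 7 were above 100 and the ages overlapped. In Dlx2+/Dcx+ cells it lay between 0 and 0.722 FPKM, with a median of 0.237, and no cell of these passed 1 FPKM. In Prom1+ cells it was at 0.176, 13.3 and 0.130 FPKM at 1 month and 4.63, 1.86 and 220 FPKM at 24 months. The oligodendrocyte markers of the Prom1+ cell with 220 FPKM summed to 88.4 FPKM, far below the Gfap+ cells. In tissue the levels of Grm3 and of the oligodendrocyte markers differed between the ages in opposite directions, as given above, and a relation between them was not tested.

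Gria2 was distributed the other way. It was at most 0.183 FPKM in the 7 Gfap+ cells. In Prom1+ cells it was at 41.0, 46.3 and 6.77 FPKM at 1 month and 2.61, 4.97 and 0.871 FPKM at 24 months, and in Dlx2+/Dcx+ cells at 4.58, 21.0, 1.88, 24.9 and 6.11 FPKM at 1 month and 0.298, 70.2, 0.0621 and 9.99 FPKM at 24 months. All 8 cells of 1 month in these subpopulations were above 1 FPKM and 4 of 7 of 24 months. Gria1, its usual partner and the most abundant AMPA subunit in tissue, was above 1 FPKM in only 2 cells (12.6 FPKM in a Prom1+ cell and 4.68 in a Dlx2+/Dcx+ cell, both of 24 months), and Gria3 in none. At least 1 AMPA subunit was above 1 FPKM in 14 of the 22 cells, with 5 of 6 Prom1+, 1 of 7 Gfap+ and 8 of 9 Dlx2+/Dcx+ cells. A kainate subunit was above 1 FPKM in 10 cells, with 1, 2 and 7 cells in the same order.

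The partner subunits needed for a whole receptor were rarely above 1 FPKM in the same cell. Grin2b reached 49.8 and 7.22 FPKM in 2 Dlx2+/Dcx+ cells of 1 month and 45.5, 10.8 and 11.5 FPKM in 3 Prom1+ cells, but Grin1, which NMDA receptors require, was at most 0.557 FPKM in any cell. Gabbr1 was above 1 FPKM in 14 cells, 8 of 9 Dlx2+/Dcx+, 4 of 7 Gfap+ and 2 of 6 Prom1+ cells, but Gabbr2 was at most 0.382 FPKM in any cell. Both NMDA and GABA-B receptors were therefore complete above 1 FPKM in 0 of 22 cells, and at any value above 0 in 5 and 6 cells. In the tissue, by contrast, Grin1 lay between 53.5 and 94.7 FPKM and Gabbr2 between 16.2 and 22.1 FPKM in every sample. Tissue and cells are not on the same scale here, as the FPKM of all genes summed to less in a tissue sample than in a cell.

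**Figure D4:**
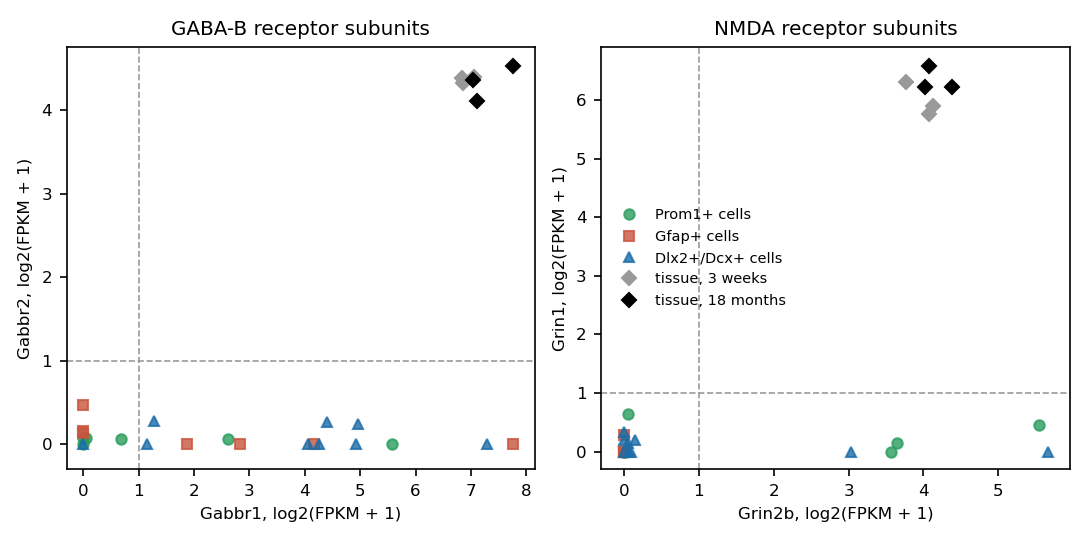
Gabbr2 against Gabbr1 (left) and Grin1 against Grin2b (right) in each single cell and each tissue sample, on log2(FPKM + 1) axes, with dashed lines at 1 FPKM. Cells spread along the horizontal axis but stay below the line for Gabbr2 and Grin1, while all 6 tissue samples lie above both lines.

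The GABA-A receptor subunits Gabrb2 and Gabra3 were above 1 FPKM in Dlx2+/Dcx+ cells only. Gabrb2, a beta subunit, passed 1 FPKM in 5 of these 9 cells, at 34.6, 0.0536, 239.7, 2.02 and 4.38 FPKM at 1 month and in 1 cell of 24 months at 114.9 FPKM, while the other 3 cells of 24 months were listed at 0. It was at most 0.0891 FPKM in the other 2 subpopulations. Gabra3 passed 1 FPKM in 4 Dlx2+/Dcx+ cells, at most at 6.80 FPKM, and was listed at 0 in all Prom1+ and Gfap+ cells. A set of alpha, beta and gamma or delta subunits above 1 FPKM was found in 1 of 22 cells, a Dlx2+/Dcx+ cell of 1 month with Gabra2 at 46.9 FPKM. Gabrd, the most abundant GABA-A subunit of the tissue, was above 1 FPKM in no cell, and Gabrg1 was above it in 1 Prom1+ cell of 1 month (5.48 FPKM).

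Some subunits were far higher in 1 or 2 cells than in the other cells of the same label, and these were picked out after their values were seen. A Gfap+ cell of 1 month had Gabrr2 at 75.5 FPKM, which was listed at 0 in every other cell. The same cell had Grik2 at 437 FPKM, which was at most 1.497 FPKM in the other 6 Gfap+ cells but was above 1 FPKM in 7 of the 22 cells and reached 68.5 FPKM in Dlx2+/Dcx+ cells. Grm7 was at 103.1 FPKM in a Gfap+ cell of 24 months and at 28.9 FPKM in one of 1 month, and in no other cell above 1 FPKM. A Prom1+ cell of 24 months had Gabrg3 at 26.5 FPKM, and the next highest cell, a Dlx2+/Dcx+ cell of 24 months, had it at 1.53 FPKM.

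The cells of 1 month and 24 months were compared within each subpopulation, for the 9 subunits detected in at least 3 cells, by the difference of mean log2(FPKM + 1). In Prom1+ cells 1 subunit was higher by over 1 at 24 months and 2 were lower, where 22% and 24.0% of all detected genes were. Gria2 was lower by 2.86 and Gabbr1 by 2.94, and for these 2 every cell of 24 months was below every cell of 1 month, where 4.10% of all detected genes behaved so and 0 subunits did in the other direction (3.90% of genes). Gabbr1 was at 46.6, 0.605 and 5.14 FPKM in the Prom1+ cells of 1 month and at 0.0370, 0 and 0 FPKM in those of 24 months. Grm3 was higher by 2.52, which rested on the cell with 220 FPKM and on overlapping values, and without that cell it was higher by 0.59. The difference of Gabbr1 shrank to −1.63 without its highest cell of 1 month.

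In Gfap+ cells 0 subunits were higher by over 1 and 1 was lower, where 29.6% and 19.6% of all detected genes were. The lower one was Grik2, through the single cell of 1 month with 437 FPKM, and without that cell the difference turned to 0.31. In Dlx2+/Dcx+ cells 3 subunits were higher by over 1 at 24 months and 2 lower, where 16.6% and 27.1% of all detected genes were. Among them Gabbr1 was higher by 2.94 and Grik2 by 1.02, while Gabrb2 was lower by 1.72 and Grin2b by 1.71. Without the cell with the highest value of each, left out after the data were seen, the difference of Grik2 turned to −0.11, that of Gabrb2 was −0.60 (−3.43 without the only cell of 24 months above 0) and that of Grin2b −0.73, whereas that of Gabbr1 was 2.25. Gabbr1 was at 1.22, 0, 29.4, 15.7 and 1.42 FPKM in the cells of 1 month and 30.1, 20.02, 18.1 and 155.4 FPKM in those of 24 months, and the ages overlapped through 1 cell of 1 month. The ages overlapped for all 9 subunits in both of these subpopulations, while 2.80% and 3.10% of all detected genes were higher and lower without overlap in Gfap+ cells and 0.644% and 1.08% in Dlx2+/Dcx+ cells. Gabbr1 was thus lower at 24 months in Prom1+ cells and higher in Dlx2+/Dcx+ cells, a difference that was not tested.

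The other genes of transmitter signalling differed between the subpopulations too. Gad2, an enzyme that makes GABA, passed 1 FPKM in all 9 Dlx2+/Dcx+ cells (6.95 to 322 FPKM) and Gad1 in 6, against 1 and 0 of the 7 Gfap+ cells and none of the Prom1+ cells. Glul was above 1 FPKM in all 22 cells and highest in Gfap+ cells, from 586 to 2091 FPKM. Cacng4 and Cacng5, auxiliary subunits that attach to AMPA receptors, each passed 1 FPKM in 5 Dlx2+/Dcx+ cells, where Cacng5 reached 277 FPKM, in 0 of the Gfap+ cells and, for Cacng5 alone, in 1 of the 6 Prom1+ cells (6.48 FPKM). Slc12a2, which brings chloride into cells, passed 1 FPKM in 7 of 7 Gfap+, 2 of 6 Prom1+ and 1 of 9 Dlx2+/Dcx+ cells, and Slc12a5 in 1 Dlx2+/Dcx+ cell only. Of the vesicular transporters, Slc17a8 was above 1 FPKM in 1 Prom1+ and 1 Gfap+ cell and Slc32a1 in 1 Dlx2+/Dcx+ cell, with a highest value of 1.72 FPKM, and Slc17a6 and Slc17a7 were listed at 0 in all cells.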

How the data were processed

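RNA-seq of 6 tissue samples and 22 single cells was analysed from 2 tables of FPKM values that the authors deposited. Per the labels and the methods of the study, reads were aligned with HISAT2 to the mouse genome (GRCm38) and expression was computed per gene, and the submitters' processing notes also name StringTie and featureCounts. Tool versions, and whether strand was used in counting, are not given in the sources used here. The tables hold 1 column per sample, with 0 columns of other samples.

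Gene names and positions came from the GENCODE annotation of GRCm38 by gene identifier, which matched 86.7% of the identifiers in the cell table and 99.2% of those in the tissue table. Positions listed in the cell table overlapped the annotated ones for only 12.8% of genes, and for 17 of the 48 members, and were not used. The genome build behind these positions is unclear. The members, the lists of pathway and marker genes and the comparisons were chosen with earlier results of these data known.

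In tissue, genes with at least 1 FPKM in at least 3 of 6 samples (12287 genes) were compared as log2(FPKM + 1) with limma 3.58.1 in R 4.3.3, without a block, and p-values were adjusted by Benjamini-Hochberg over all of them. A gene was called at an unadjusted p under 0.05 with an absolute log2 fold change above 1. Ratios were compared by exact two-sided permutation over samples. The subunits named with values in tissue were Gria1, Gria2, Grin1, Grin2a, Grin2b, Grik2, Grik5, Grid1, Grm3, Grm5, Gabra2, Gabrd, Gabrg1, Gabbr1 and Gabbr2, by a rule that took the called members, those with an adjusted p under 0.05, the 2 with the highest mean in each family and those of the ratios. In cells the rule took members above 1 FPKM in most cells of a subpopulation (0.5 of them or more), those whose ages differed by over 1 without overlap and the 3 highest per subpopulation, and in the pathway list the called and the highest gene of each part. Other members with values are said to have been picked after their values were seen, illustrate a count or lie in a gene cluster. Cells were described with values, counts of cells above 1 FPKM and differences of mean log2(FPKM + 1), without tests. Alternatives were a pseudocount of 0.1, no filter, TPM and quantile scaling, adjusted p-values, a replicate block, other limits in cells, medians over cells and leaving out each sample in turn, which was also applied to single subunits in cells after seeing the data. On simulated tables of 12015 genes with 193 genes changed by a log2 fold change of 2, this tissue comparison called 90.2% of those genes and 0.897% of the others. The largest log2 fold change of a tested subunit was 1.19, and how many changes of that size or smaller would be called was not tested.

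The smallest steps between low tissue values correspond to 1 part in 36647779 to 44405033 per sample, with 58.5% to 60.1% of low values within 0.02 of a whole number of steps, so that depth was similar between samples and counts were not recovered. For cells the depth could not be recovered from the values, and the read totals that the study gives were not used here. Correlations of log2 values were 0.889 to 0.916 between samples of the same age and 0.861 to 0.894 between ages. Samples with the same replicate number did not deviate together over all genes (r = −0.096, −0.011 and −0.098). With 3 samples per age this does not exclude a pairing by number, and none is named. Python 3.11.15 with pandas 2.3.3, numpy 2.4.6, scipy 1.17.1 and matplotlib 3.10.9 was used for the rest. Some subunits that enter the counts and sums are not reported here by name. Upstream sequences came from the RefSeq table of GRCm38.p6.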

Additional observations from a re-analysis of the deposited data

Results flagged for a closer look

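Within groups of 4 or 5 cells, a single cell stood apart from the others of its subpopulation and age in 6 of the 14 groups tested, which concern 4 subunits, as the gap between the highest cell and the next took most of the range of its group. The limit is one at which chance flags about 1 in 20 groups of normally distributed values, while these FPKM values are skewed, hold many zeros and come from the same cells across groups, so that the rate here is not known. In Dlx2+/Dcx+ cells of 24 months, Gabbr1 was at 155.4 FPKM in one cell and at most 30.1 in the others, Gabrb2 at 114.9 and 0 FPKM, and Gria2 at 70.2 and 9.99 FPKM. In Dlx2+/Dcx+ cells of 1 month, Gabrb2 was at 239.7 FPKM in one cell and at most 34.6 in the others and Grin2b at 49.8 and 7.22 FPKM. In Gfap+ cells of 24 months, Gabbr1 was at 216.4 FPKM in one cell and at most 6.14 in the others.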

How the results depend on the processing

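The number of subunits called higher in tissue was 1, and it was 2 with a pseudocount of 0.1 and with TPM scaling (Gabrg1 and Gabrr2), 0 by adjusted p with or without the fold limit, and 1 to 4 without 1 sample in turn, while 0 were called lower in each of these. Over all genes, 225 were called higher and 254 lower, against 416 and 349 with a pseudocount of 0.1 and 521 and 370 of 14791 rather than 12287 genes with TPM scaling, and 150 to 278 and 181 to 315 without 1 sample in turn. With the replicate number as a block, 1 subunit was called higher and 10 rather than 14 had an unadjusted p under 0.05 by limma. Of all 12287 genes, 244 were then called higher and 261 lower. An adjusted p under 0.05 from limma was reached by 4 genes higher and 13 lower, rather than 308 and 297. No pairing of samples by replicate number is named. The median log2 fold change of the subunits stayed between 0.23, without the first sample of 18 months, and 0.47, with TPM scaling. Without 1 sample in turn, the log2 fold change ranged from −0.14 to 0.073 for Gabbr2, which turned without the second sample of 18 months, and from −0.33 to 0.050 for Grik2, which turned without the first of 18 months (0.050) or the third of 3 weeks (0.0020). The difference in log2 ratio ranged from 0.16 to 0.51 for Grin2a to Grin2b and from −0.15 to 0.20 for Gria1 to Gria2 (−0.082 without the second of 3 weeks) without 1 sample in turn. In cells, at any value above 0 rather than above 1 FPKM, 9 rather than 3 subunits were found in at least 3 of 6 Prom1+ cells and 10 rather than 4 in at least 5 of 9 Dlx2+/Dcx+ cells, any kainate subunit in 17 rather than 10 cells, and NMDA, GABA-A and GABA-B receptors were complete in 5, 2 and 6 cells. Above 5 FPKM, 1 rather than 2 subunits remained in at least 4 of 7 Gfap+ cells and 0 cells had a complete GABA-A receptor. Without 1 cell in turn these counts were 2 to 3, 2 and 4 to 6 subunits in Prom1+, Gfap+ and Dlx2+/Dcx+ cells. With a pseudocount of 0.1, 2 subunits were higher by over 1 at 24 months in Prom1+ and 2 in Gfap+ cells, and with medians 2 were higher in Prom1+ and 1 was lower in Dlx2+/Dcx+ cells. Without 1 cell in turn, 0 to 3, 0 to 1 and 2 to 3 subunits were higher and 2 to 3, 0 to 2 and 1 to 3 lower in Prom1+, Gfap+ and Dlx2+/Dcx+ cells. For Grik2 the age difference then ranged from −8.46 to 0.31 in Gfap+ cells and from −0.11 to 1.93 in Dlx2+/Dcx+ cells, an alternative chosen after seeing the data. The cause of these shifts was not tested. Groups of 2 to 5 cells limit every count in cells.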
